A study of Mus musculus with 19 samples.

Results

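Probe sets of ionotropic and metabotropic glutamate receptor subunits and of GABA-A receptor subunits were compared in mouse brain between CCI-779 and placebo and between SCA3 transgenic and wild-type mice. The members were all probe sets whose single gene symbol begins with Gria, Grik, Grin, Grid or Grm followed by a digit, or with Gabr followed by a, b, d, e, g, p, q or r. This rule took 77 of 45037 probe sets and 38 of 18193 genes on the array. Of these, 55 probe sets of 31 genes averaged 4 or more in log2 intensity over the 19 arrays and were tested, among 20473 tested probe sets of 10454 genes. One member outside the tested set matches the rule by its name and codes for a scaffold protein and not for a receptor subunit. Gabre, Gabrp, Gabrq, Gabrr1, Gabrr2 and Grin2a likewise had no probe set above the filter, with means of 1.89 to 2.58.

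Male mice in 4 groups were measured on single-colour Affymetrix arrays: SCA3 mice given CCI-779 (n = 5), SCA3 mice given placebo (n = 5), wild-type (wt) mice given CCI-779 (n = 5) and wt mice given placebo (n = 4). CCI-779 (temsirolimus) is an ester of rapamycin that inhibits the kinase mTOR, and SCA3 mice carry a transgene for spinocerebellar ataxia type 3. Treatment began at 5 weeks of age and lasted 6 weeks, with 3 intraperitoneal injections a week of the drug at 20 mg/kg or of placebo. The labels do not give the promoter of the transgene, nor whether every array stands for its own mouse. The p-values then rest on the spread among these samples alone, and that spread may be technical. The labels call the tissue brain, and in such bulk RNA fewer cells of a type and less RNA per cell cannot be told apart.

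Glutamate opens AMPA, kainate and NMDA receptors, which are tetramers of the Gria, Grik and Grin subunits, and acts through G proteins on the metabotropic receptors (Grm). GABA opens GABA-A receptors, chloride channels of 5 subunits that usually join alpha, beta and gamma or delta subunits. Subunit composition sets the kinetics and location of both receptor classes, and mTOR complex 1 is known for its part in protein synthesis at excitatory synapses.

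The promoters of Grik5, Grin2c, Grm2, Grin2d and Gria4 are shown because these 5 glutamate receptor genes had a probe set higher under CCI-779 in at least 1 genotype and have a RefSeq start in the promoter table (build GRCm38.p6). Each sequence is the 250 bases before the transcription start, on the minus strand and written 5′ to 3′, at chr7:25072370-25072619 for Grik5, chr11:115267244-115267493 for Grin2c, chr9:106656110-106656359 for Grm2, chr7:45866682-45866931 for Grin2d and chr9:4796235-4796484 for Gria4. Capitals mark the GC box GGGCGG, the letters bound by Sp1-type factors, on either strand.
Grik5: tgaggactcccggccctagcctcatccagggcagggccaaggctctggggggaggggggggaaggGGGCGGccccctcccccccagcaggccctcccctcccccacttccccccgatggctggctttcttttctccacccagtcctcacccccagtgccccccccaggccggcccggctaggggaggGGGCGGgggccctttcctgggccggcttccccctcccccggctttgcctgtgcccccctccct
Grin2c: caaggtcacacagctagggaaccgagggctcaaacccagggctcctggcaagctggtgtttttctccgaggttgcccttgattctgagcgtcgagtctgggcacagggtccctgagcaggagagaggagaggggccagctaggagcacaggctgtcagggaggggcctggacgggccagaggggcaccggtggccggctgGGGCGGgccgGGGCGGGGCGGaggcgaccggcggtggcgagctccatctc
Grm2: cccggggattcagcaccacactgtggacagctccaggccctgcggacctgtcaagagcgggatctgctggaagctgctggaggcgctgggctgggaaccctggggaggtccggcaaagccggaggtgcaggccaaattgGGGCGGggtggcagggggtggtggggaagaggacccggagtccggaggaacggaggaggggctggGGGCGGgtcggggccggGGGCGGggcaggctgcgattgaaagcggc
Grin2d: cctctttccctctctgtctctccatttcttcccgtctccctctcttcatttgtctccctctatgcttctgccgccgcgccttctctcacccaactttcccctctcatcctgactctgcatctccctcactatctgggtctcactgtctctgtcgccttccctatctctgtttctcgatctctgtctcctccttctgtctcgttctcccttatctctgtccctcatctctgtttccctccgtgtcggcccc
Gria4: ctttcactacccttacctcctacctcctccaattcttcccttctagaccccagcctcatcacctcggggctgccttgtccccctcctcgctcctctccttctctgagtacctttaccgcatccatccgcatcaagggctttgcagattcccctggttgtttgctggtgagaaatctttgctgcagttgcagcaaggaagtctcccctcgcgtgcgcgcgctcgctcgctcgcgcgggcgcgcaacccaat
The Grik5 window held 2 GC boxes, that of Grin2c 3 with 2 of them overlapping, that of Grm2 3, and those of Grin2d and Gria4 0 each. Over all tested members, 22 of 31 genes had a promoter in the table, with 29 windows, and 13 of these (44.8%) held the motif on either strand, against 32.7% of all 32851 windows. The motif stood in 3 of 6 windows of members with a probe set higher under CCI-779 and in 10 of 23 of the other members. The E-box CACGTG and the cyclic AMP response element TGACGTCA were in 0 of 29 member windows, and in 6.02% and 1.55% of all windows. Members' windows were richer in G and C (median 60.4%) than all windows (median 52.4%).

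Under CCI-779, some glutamate receptor subunits rose in both genotypes, and 0 of 22 tested GABA-A probe sets passed the test in SCA3. Gria1, Grik5, Grin2b, Grin2c and Grm5 each had a probe set that rose in SCA3 and in wt mice. In SCA3 mice 8 of 55 member probe sets rose (14.5%) and 1 fell (1.82%), where 10.2% of all tested probe sets rose and 4.95% fell. In wt mice 8 rose (14.5%) and 6 fell (10.9%), where 9.78% of all tested probe sets rose and 2.11% fell. Counted by the brightest probe set of each gene, 6 of 31 genes rose and 1 fell in SCA3 (all genes 11% and 6.09%), and 6 rose and 2 fell in wt (all genes 11.5% and 1.64%). The median log2 difference of the member probe sets was 0.00 in SCA3 and 0.02 in wt, beside 0.01 and 0.05 over all tested probe sets. A probe set counts as risen or fallen where limma's p, adjusted by the Benjamini-Hochberg method over all 20473 probe sets, was under 0.05.

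The split between receptor classes was as follows. Of the 33 tested glutamate receptor probe sets, 8 rose (24.2%) and 1 fell (3.03%) in SCA3, and 7 rose (21.2%) and 2 fell (6.06%) in wt. Of the 22 tested GABA-A probe sets, 0 rose and 0 fell in SCA3, where 4 (18.2%) had an unadjusted p under 0.05, as had 30.4% of all tested probe sets. In wt 1 GABA-A probe set rose (4.55%) and 4 fell (18.2%). Over all tested probe sets 10.2% rose and 4.95% fell in SCA3, and 9.78% rose and 2.11% fell in wt. Whether the classes differ was not tested. When each array was centred on its own median, the member counts stayed at 8 and 1 in SCA3 and became 4 higher and 8 lower in wt. This centring moved the median of all tested probe sets in wt to −0.05, against 0.05 as deposited, and turned the counts over all probe sets to 1587 higher and 1961 lower in SCA3 (2094 and 1013 as deposited) and to 959 and 1163 in wt (2002 and 433 as deposited). A renewed quantile normalization gave 8 and 1 member probe sets in SCA3 and 6 and 7 in wt, with 1834 and 1577 over all probe sets in SCA3 and 1206 and 734 in wt. No named difference past the threshold changed sign under either scaling. A fit of the wt arrays alone kept the wt calls of Grik5, Grm5, Gabrg1 and Gabra4 and ended the other 10. That fit gave 1170 higher and 194 lower over all tested probe sets. With no intensity filter, the calls of Grik1, Grin2b and Grin2c in SCA3 and of Gabra3, Gria3, Grin2c and Grm3 in wt were lost.

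**Figure D1:**
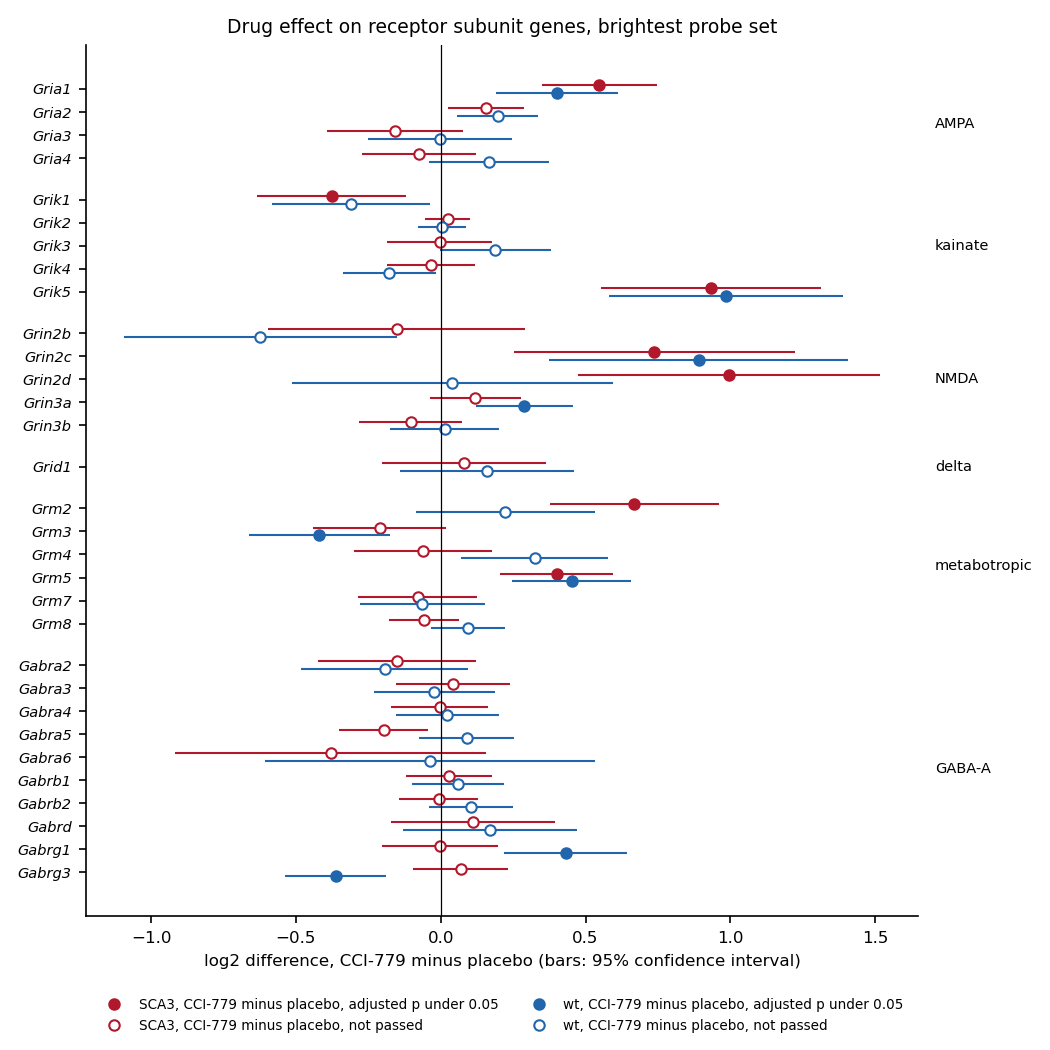
Log2 difference between CCI-779 and placebo in SCA3 (red) and in wt mice (blue) for the brightest probe set of each of the 31 tested genes, grouped by receptor family. Bars are 95% confidence intervals of the limma fit and filled points passed an adjusted p of 0.05. Gria1, Grik5, Grin2c and Grm5 are filled in both genotypes, and no GABA-A subunit is filled in SCA3.

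Some measures of the arrays moved with the drug, and they stand beside every count above. In SCA3 the bacterial hybridisation spike-ins had a log2 mean of 10.55 ± 0.09 on CCI-779 arrays and 11.36 ± 0.18 on placebo arrays (SD, n = 5 each, exact permutation p = 0.00794, adjusted over 6 such tests 0.0238), and in wt 10.23 ± 0.26 (n = 5) against 11.13 ± 0.29 (n = 4) (exact permutation p = 0.0159, adjusted 0.0318). The 3′ minus 5′ log2 difference of GAPDH, which grows as RNA breaks down, was −0.35 on SCA3 CCI-779 arrays against −0.52 on SCA3 placebo arrays (exact permutation p = 0.00794, adjusted 0.0238) and −0.28 against −0.54 in wt (exact permutation p = 0.0317, adjusted 0.0475). Without wt CCI-779 replicate 1, which had 0.28, the GAPDH mean of the wt CCI-779 arrays was −0.42, at −0.44 to −0.39 against −0.58 to −0.50 under placebo (exact permutation p = 0.0286, n = 4 each, the smallest p this allows). The same difference of actin did not pass. It was 1.28 against 1.30 in SCA3 (exact permutation p = 0.873, adjusted 0.873) and 1.60 against 1.28 in wt (exact permutation p = 0.294, adjusted 0.353). Some arrays stood apart from the others. On wt CCI-779 replicate 1 the actin 3′ minus 5′ difference was 2.55, where the other wt CCI-779 arrays had 1.20 to 1.53. SCA3 CCI-779 replicates 2 and 5 scored 42.4 and 39.2 on the second principal component, where the rest of the group scored −1.96 to 2.47. Their actin differences were 0.96 and 0.88, against 1.44 to 1.55 on the rest of the group and 1.26 to 1.33 on SCA3 placebo arrays. Their GAPDH differences of −0.31 and −0.37 lay within the −0.43 to −0.28 of the rest of the group. The part of these measures in the receptor results was not tested.

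Markers of neurons, astrocytes, oligodendrocytes and microglia were measured, as the label brain would have it. Of 8 tested oligodendrocyte markers, 4 fell and 0 rose in SCA3 under CCI-779, and their mean level was 11.82 to 12.16 in SCA3 CCI-779 and 12.05 to 12.53 in SCA3 placebo arrays. In wt 0 of these 8 passed in either direction, at 11.87 to 12.11 under CCI-779 and 12.01 to 12.30 under placebo. Of 7 tested microglia markers, 3 fell and 0 rose in each genotype, with levels of 7.88 to 8.19 against 8.12 to 8.32 in SCA3 and 7.72 to 8.02 against 8.13 to 8.32 in wt. Striatal neuron markers rose in 2 of 6 in SCA3 (9.56 to 9.88 against 9.39 to 9.57) and in 1 of 6 in wt (9.56 to 9.76 against 9.38 to 9.52). Inhibitory interneuron markers rose in 2 of 7 in each genotype, Gad1 and Gad2 in SCA3 and Gad1 and Slc32a1 in wt. These genes are counted again below among those of glutamate and GABA synthesis and transport. Pvalb, Sst, Vip and Npy did not pass in either genotype. Thalamic and brainstem markers rose in 2 of 4 in each genotype, and 1 of 5 Purkinje cell markers fell in SCA3. Choroid plexus and meningeal markers rose in 3 of 7 in SCA3 and 1 of 7 in wt, and astrocyte markers in 1 of 8 and 2 of 8. Slc1a2, which is in the astrocyte list, is counted again below as a glutamate transporter. Of 4 granule cell and 4 endothelial markers, 0 passed in either genotype. Of 6 cortical and hippocampal neuron markers 0 passed in SCA3, and 1 rose and 1 fell in wt. Over all genes 11% rose and 6.09% fell in SCA3 under CCI-779, and 11.5% rose and 1.64% fell in wt. The lowest mean among the tested markers was 4.71, in the choroid list. The part of these cell types in the receptor results was not tested.

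Among AMPA receptor subunits, which carry most fast excitation, Gria1 (GluA1) was the gene whose brightest probe set passed the test. On its brightest probe set (1435239_at), Gria1 had log2 intensities of 11.57, 11.60, 11.31, 11.41 and 11.75 on the SCA3 CCI-779 arrays and 11.09, 10.97, 11.01, 11.02 and 10.82 on the SCA3 placebo arrays. The wt CCI-779 arrays had 11.63, 11.39, 11.33, 11.22 and 11.15, and the wt placebo arrays 11.00, 11.04, 10.97 and 10.76. Every CCI-779 array lay above every placebo array of its genotype. The rise was 1.46-fold in SCA3 (log2 difference 0.55, SE 0.09, adjusted p = 0.00144) and 1.32-fold in wt (0.40, SE 0.10, adjusted p = 0.0169). In wt the call was lost without wt placebo replicate 4 (adjusted p = 0.0635) as well as under median centring, in the fit of the wt arrays alone and with 1 value per gene (adjusted p up to 0.10). In SCA3 it held under every alternative tried.

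The second Gria1 probe set (1448972_at) passed the test in SCA3. It read 10.69, 11.19, 10.95, 10.83 and 11.10 on SCA3 CCI-779 arrays, against 10.64, 10.51, 10.46, 10.51 and 10.47 on SCA3 placebo arrays, with no overlap (log2 difference 0.43, SE 0.08, adjusted p = 0.00224). In wt it averaged 10.80 ± 0.11 (n = 5) with CCI-779 and 10.78 ± 0.02 (n = 4) with placebo (SD), a log2 difference of 0.02 (adjusted p = 0.912). The difference between the genotypes in this effect was 0.42 (95% confidence interval 0.17 to 0.66) and did not pass (adjusted p for the interaction 0.518). Both probe sets of Gria1 rose in SCA3, and 1 of them in wt.

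Gria2 (GluA2), the subunit that keeps AMPA receptors from passing calcium, averaged 12.95 ± 0.07 on SCA3 CCI-779 arrays and 12.79 ± 0.13 on SCA3 placebo arrays (SD, n = 5 each) and 13.05 ± 0.07 (n = 5) against 12.85 ± 0.06 (n = 4) in wt. Its log2 differences of 0.16 (SE 0.06) and 0.20 (SE 0.07) did not pass (adjusted p = 0.10 and 0.0618). Gria3 (GluA3) showed −0.16 in SCA3 and 0.00 in wt on its brightest probe set, and a dimmer one (1420563_at) fell in wt (−0.56, SE 0.17, adjusted p = 0.0389). That fall lost its call without wt CCI-779 replicates 1, 3 or 4 or any 1 of the wt placebo arrays (adjusted p up to 0.10). Gria4 (GluA4), abundant in cerebellum and interneurons, had 3 tested probe sets that disagreed. The middle one (1440891_at) rose in wt (0.35, SE 0.09, adjusted p = 0.0214), the brightest showed 0.17 (adjusted p = 0.273), and the dimmest showed −1.13 (adjusted p = 0.0725). The rise of Gria4 lost its call without any 1 of wt CCI-779 replicate 3 and wt placebo replicates 3 and 4 (adjusted p up to 0.0669), under quantile normalization (0.0861), centring (0.112) and the fit of the wt arrays alone (0.0736), and its sign turned with 1 value per gene (−0.20, adjusted p = 0.462).

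Grik5 (GluK5), a kainate receptor subunit of high affinity that works only together with Grik1, Grik2 or Grik3, rose in both genotypes. It read 9.19, 9.66, 9.01, 9.31 and 9.70 on SCA3 CCI-779 arrays, against 7.96, 8.34, 8.51, 8.73 and 8.67 on SCA3 placebo arrays. In wt it read 9.51, 8.79, 9.11, 9.33 and 8.65 under CCI-779, against 8.12, 7.79, 8.18 and 8.27 under placebo. Neither pair of groups overlapped. The rise was 1.91-fold in SCA3 (log2 difference 0.93, SE 0.18, adjusted p = 0.00298) and 1.98-fold in wt (0.99, SE 0.19, adjusted p = 0.00451), and both calls held under every alternative tried, leaving out each array included. The interaction was −0.05 with a 95% confidence interval of −0.61 to 0.50.

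No partner of Grik5 passed the test as higher. Grik1 (GluK1) fell in SCA3, with 7.50, 7.88, 7.65, 7.60 and 7.87 on CCI-779 arrays against 8.17, 8.39, 8.08, 7.91 and 7.83 on placebo arrays (log2 difference −0.38, SE 0.12, adjusted p = 0.0453). The 2 groups overlapped, and the call was lost without any 1 of 9 arrays (adjusted p up to 0.12) and without wt CCI-779 replicate 2 and wt placebo replicate 3 together (adjusted p = 0.0641). In wt the difference of Grik1 was −0.31 (SE 0.13, adjusted p = 0.123). These values are from its brightest probe set. Its dimmer one (1439987_at), with a mean of 4.01 close to the filter, showed 0.10 in SCA3 and 0.23 in wt without passing. Grik2 (GluK2) lay between 10.08 and 10.19 on all 19 arrays on its brightest probe set, with log2 differences of 0.02 and 0.01. Whether this probe set can follow a change was not tested. The dimmer Grik2 probe set (1425790_a_at, mean 4.44) showed −0.18 in SCA3 and −0.39 in wt without passing. Grik3 (GluK3) and Grik4 (GluK4) showed 0.00 and −0.03 in SCA3 and 0.19 and −0.18 in wt without passing.

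NMDA receptors join the obligatory Grin1 subunit with Grin2 or Grin3 subunits, and the Grin2 genes rose on some probe sets. Grin2c (GluN2C), a subunit of cerebellar granule cells, read 8.42, 9.34, 8.54, 8.90 and 9.31 on SCA3 CCI-779 arrays, against 7.75, 8.33, 8.04, 8.55 and 8.15 on SCA3 placebo arrays. In wt it read 9.09, 8.35, 9.26, 9.0 and 8.40 under CCI-779, against 8.41, 7.69, 7.51 and 8.12 under placebo. The groups overlapped slightly in both genotypes. The log2 difference was 0.74 in SCA3 (SE 0.23, adjusted p = 0.0394) and 0.89 in wt (SE 0.24, adjusted p = 0.0266). Leaving out any 1 of 7 SCA3 arrays ended the call in SCA3 (adjusted p up to 0.109), as did any 1 of 5 wt arrays in wt (adjusted p up to 0.0908).

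Grin2d (GluN2D), a subunit found mainly in brainstem, thalamus and interneurons, rose in SCA3. It read 5.05, 5.64, 4.55, 5.30 and 6.23 on SCA3 CCI-779 arrays, against 4.43, 4.14, 4.38, 4.51 and 4.33 on SCA3 placebo arrays, which is close to the intensity filter. The groups did not overlap and the rise was 1.99-fold (log2 difference 1.0, SE 0.25, adjusted p = 0.0131). In wt Grin2d averaged 4.48 ± 0.48 (SD, n = 5) on CCI-779 arrays and 4.44 ± 0.14 (n = 4) on placebo arrays (log2 difference 0.04, adjusted p = 0.936). The genotype difference of the drug effect was 0.95 (95% confidence interval 0.19 to 1.72), with an adjusted p of 0.599. All these values are from 1 probe set (1442328_at). The other Grin2d probe set (1421393_at) averaged 1.42 over the 19 arrays, below the filter, and was not tested.

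Grin2b (GluN2B), the main partner of Grin1 in forebrain, had 3 tested probe sets that disagreed in sign. On 1457003_at it read 9.42, 9.50, 9.58, 9.01 and 9.19 on SCA3 CCI-779 arrays against 8.93, 8.94, 8.65, 8.83 and 8.82 on SCA3 placebo arrays, and 9.82, 9.43, 9.64, 9.73 and 8.91 on wt CCI-779 arrays against 8.87, 8.84, 9.04 and 8.82 on wt placebo arrays. This probe set rose in SCA3 (0.51, SE 0.14, adjusted p = 0.0238) and in wt (0.61, SE 0.15, adjusted p = 0.0151). Leaving out CCI-779 replicate 2 or placebo replicate 3 of the SCA3 arrays ended the SCA3 call (adjusted p up to 0.0642). The brightest probe set (1442370_at) showed −0.15 in SCA3 (adjusted p = 0.672) and −0.62 in wt (SE 0.22, adjusted p = 0.0758), and the dimmest −0.41 and −0.70 without passing. The data therefore give no single direction for Grin2b.

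Grin3a (GluN3A), a subunit that lowers calcium entry, rose in wt (0.29, SE 0.08, adjusted p = 0.0265), with 8.24, 7.87, 7.91, 7.87 and 7.85 under CCI-779 against 7.62, 7.60, 7.59 and 7.83 under placebo. These groups did not overlap, and the call was lost without wt placebo replicate 2 or 3 (adjusted p up to 0.0778), under renewed quantile normalization and median centring (up to 0.113) and in the fit of the wt arrays alone (0.102). In SCA3 the difference of Grin3a was 0.12 (adjusted p = 0.303). Grin3b showed −0.10 and 0.01, Grid1, a delta receptor that binds cerebellins at synapses, showed 0.08 and 0.16, and Grin2a was below the intensity filter (mean 2.13).

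Among metabotropic receptors, Grm5 rose in both genotypes and Grm2 in SCA3. Grm5 (mGlu5), a group I receptor coupled to phospholipase C, read 11.48, 11.32, 11.41, 11.40 and 11.32 on SCA3 CCI-779 arrays, against 11.33, 10.87, 10.96, 10.86 and 10.90 on SCA3 placebo arrays. In wt it read 11.54, 11.52, 11.38, 11.33 and 11.21 under CCI-779, against 10.96, 10.86, 11.16 and 10.80 under placebo. Only SCA3 placebo replicate 1 reached the treated range. The log2 difference was 0.40 in SCA3 (SE 0.09, adjusted p = 0.00852) and 0.45 in wt (SE 0.10, adjusted p = 0.00791), and both calls held without each array in turn, though not when all probe sets of Grm5 were averaged. A dimmer Grm5 probe set (1456119_at) showed −0.36 and −0.54 without passing (adjusted p = 0.241 and 0.109).

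Grm2 (mGlu2), a presynaptic group II receptor that inhibits adenylyl cyclase, read 8.15, 8.60, 8.17, 8.36 and 8.82 on SCA3 CCI-779 arrays, against 7.40, 7.93, 7.60, 7.93 and 7.90 on SCA3 placebo arrays. No array overlapped, and the rise was 1.59-fold (log2 difference 0.67, SE 0.14, adjusted p = 0.00453). In wt the difference was 0.22 (SE 0.15, adjusted p = 0.329), and the interaction of 0.45 (95% confidence interval 0.02 to 0.87) did not pass (adjusted p = 0.642). Grm3 (mGlu3), the group II receptor shared by neurons and astrocytes, fell in wt (−0.42, SE 0.12, adjusted p = 0.0276) and showed −0.21 in SCA3 (adjusted p = 0.204). The wt call of Grm3 was lost without any 1 of 5 wt arrays (adjusted p up to 0.0935). Grm4, Grm7 and Grm8, presynaptic group III receptors, showed −0.06, −0.08 and −0.06 in SCA3 and 0.32, −0.06 and 0.09 in wt, and 0 of the 3 passed.

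The arrays that stood apart in SCA3 read high on most of the probe sets that rose there. SCA3 CCI-779 replicates 2 and 5 were the highest of their group on 6 of the 8 probe sets that rose in SCA3 (both of Gria1, Grik5, Grin2c, Grin2d and Grm2), on 15 of all 55 member probe sets (27.3%) and on 23.1% of all tested probe sets. The 8 were called from values that include these arrays, so their larger share is partly built in. The share among all probe sets that rose in SCA3 was not computed. Cortical and hippocampal neuron markers of replicates 2 and 5 averaged 10.75 and 10.68, where the other SCA3 CCI-779 arrays had 10.13 to 10.41 and the SCA3 placebo arrays 10.08 to 10.42. Their astrocyte markers averaged 12.16 and 12.11, against 11.73 to 11.92 on the other SCA3 CCI-779 arrays and 11.70 to 11.98 on SCA3 placebo arrays. Without both arrays 4 member probe sets rose in SCA3 and 1 fell, against 8 and 1 with them. Over all tested probe sets 914 rose and 289 fell without both, against 2094 and 1013 with them. Gria1 on both probe sets, Grik5 and Grm5 passed there, while Grm2 (0.48, adjusted p = 0.0517), Grin2b (0.50, adjusted p = 0.0929), Grin2d (0.61, adjusted p = 0.115) and Grin2c (0.45, adjusted p = 0.296) did not. The part of the neuron and astrocyte markers, and of the low actin 3′ minus 5′ differences of these arrays given above, in these values was not tested.

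**Figure D2:**
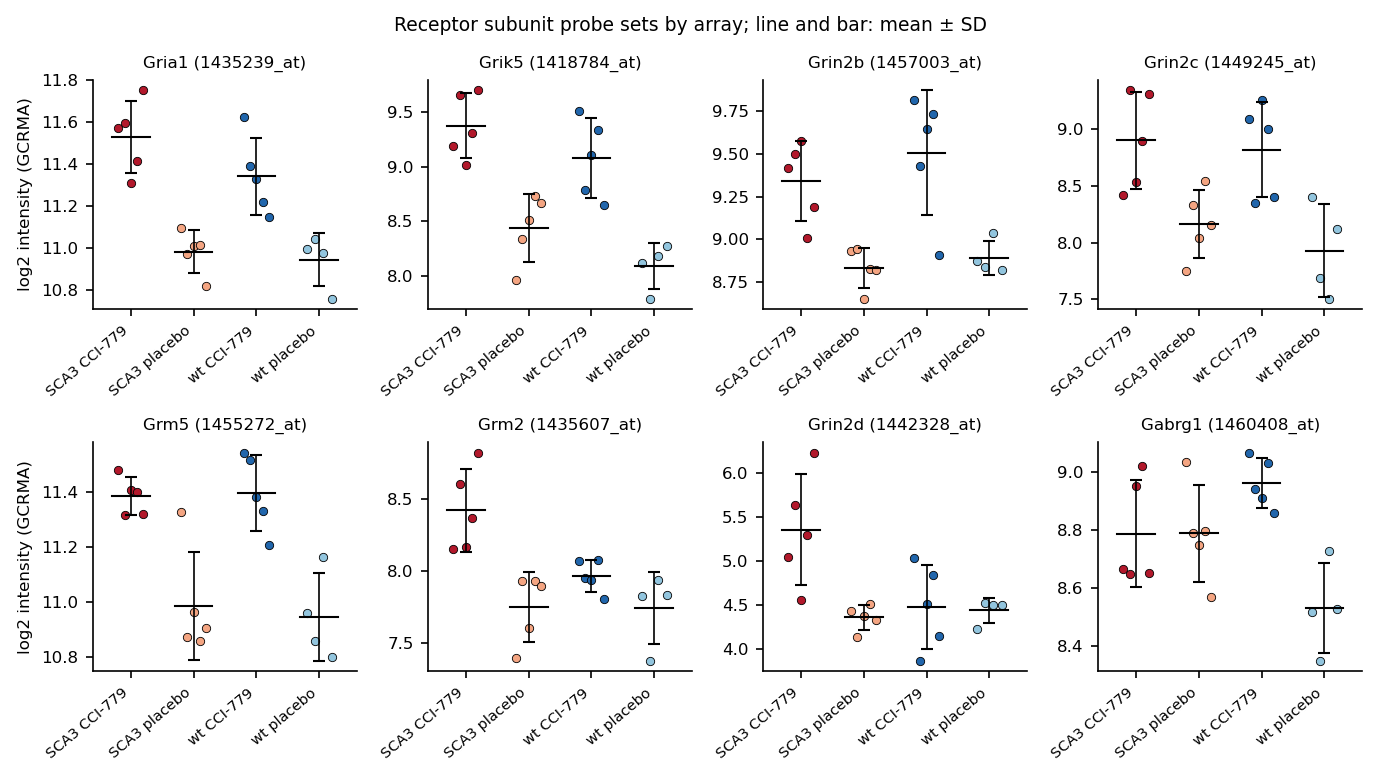
Log2 intensity of 8 receptor subunit probe sets on each array, by group, with the group mean and SD; each panel has its own scale. Points of Gria1 and Grik5 separate CCI-779 from placebo in both genotypes, those of Grm2 and Grin2d in SCA3 only, and those of Gabrg1 in wt only.

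GABA-A subunits showed 0 called changes in SCA3 on all 19 arrays. Without wt CCI-779 replicate 1, which enters that test through the shared estimate of spread, dim probe sets of Gabrb2 (1450319_at, −0.73, adjusted p = 0.0157) and Gabra3 (1421263_at, −0.64, adjusted p = 0.0399) fell there. Their SCA3 differences themselves are the same with that array, at adjusted p = 0.372 and 0.154. The alpha subunit genes set the pharmacology and location of the receptor, and on their brightest probe sets Gabra2 to Gabra6 showed log2 differences from −0.38 (Gabra6) to 0.04 (Gabra3) in SCA3 and from −0.19 (Gabra2) to 0.09 (Gabra5) in wt. Gabra5, the alpha subunit of extrasynaptic receptors in hippocampus, came nearest in SCA3, with 9.74, 9.54, 9.81, 9.61 and 9.73 under CCI-779 against 9.99, 9.95, 9.74, 9.90 and 9.82 under placebo (−0.20, SE 0.07, adjusted p = 0.0782). The beta subunits Gabrb1 and Gabrb2, needed to form the channel, showed 0.03 and −0.01 in SCA3 and 0.06 and 0.11 in wt on their brightest probe sets. Gabrd, the delta subunit of tonic inhibition, averaged 9.07 ± 0.19 and 8.96 ± 0.19 in SCA3 CCI-779 and SCA3 placebo (SD, n = 5 each) and 9.03 ± 0.16 (n = 5) and 8.86 ± 0.34 (n = 4) in wt CCI-779 and wt placebo.

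In wt mice the 2 measured gamma subunit genes each had 1 probe set that passed, in opposite directions. Gabrg1, a gamma subunit of restricted distribution, read 9.07, 8.94, 8.91, 9.03 and 8.86 under CCI-779 against 8.52, 8.35, 8.73 and 8.53 under placebo, with no overlap (1.35-fold higher, log2 difference 0.43, SE 0.10, adjusted p = 0.0119). In SCA3 the difference of Gabrg1 was 0.00 (adjusted p = 0.995), and the interaction of −0.43 did not pass (adjusted p = 0.554). The dimmer Gabrg1 probe set (1427227_at) showed 0.29 and 0.31 in SCA3 and wt without passing (adjusted p = 0.0818 and 0.0915), so the contrast between genotypes stood on 1 of its 2 probe sets. Gabrg3 read 5.70, 5.90, 5.67, 5.71 and 5.71 under CCI-779 against 6.35, 6.02, 6.17 and 5.86 under placebo in wt (1.29-fold lower, log2 difference −0.36, SE 0.08, adjusted p = 0.0104), and its difference in SCA3 was 0.07 (adjusted p = 0.591). These values are from its 1 tested probe set (1439717_at), whose signal was low. The Gabrg3 means were 5.71 in SCA3 CCI-779, 5.64 in SCA3 placebo and 5.74 in wt CCI-779, and only wt placebo stood higher, at 6.10. Other Gabrg3 probe sets averaged 2.02, 2.07 and 2.98, below the filter, and were not tested. Centring ended the call of Gabrg1 (adjusted p = 0.052) and a fit on the wt arrays alone that of Gabrg3 (adjusted p = 0.0622).

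The other GABA-A calls in wt came from dimmer probe sets of genes whose brightest probe set did not pass. Gabra4 on 1429330_at read 9.31, 9.55, 9.56, 9.40 and 9.65 under CCI-779 against 9.81, 9.98, 10.03 and 10.06 under placebo in wt, with no overlap (−0.47, SE 0.11, adjusted p = 0.011), while its brightest probe set showed 0.02. Gabrb2 on 1429685_at also fell (−0.28, SE 0.08, adjusted p = 0.0292) beside 0.11 on the brightest. Gabra3 on 1421263_at fell 2.31-fold (log2 difference −1.21, SE 0.32, adjusted p = 0.0208) beside −0.02 on the brightest. Without wt CCI-779 replicate 1, which read 4.45 there, Gabra3 on this probe set showed −0.89 (adjusted p = 0.0275), and the call was lost without wt placebo replicate 3 (adjusted p = 0.0671). The fall of Gabrb2 lost its call when CCI-779 replicate 1 or 2 or placebo replicate 2 or 4 of the wt arrays was left out (adjusted p up to 0.0938). Another Gabrb2 probe set (1450319_at) showed −1.73 in wt (SE 0.55, adjusted p = 0.0506), with 4.09 on wt CCI-779 replicate 1 and 7.31 to 8.23 on the others of that group. It showed −1.0 and passed without that array (adjusted p = 0.0114).

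Such disagreement between probe sets of one gene was also counted over all genes with several. Among the 16 member genes with several tested probe sets, the dimmest showed a lower drug difference than the brightest in 10 genes in SCA3 and in 14 in wt, where over all 4567 genes with several this held for 49.5% and 59.1%. The median of the dimmest minus the brightest difference was −0.11 in SCA3 and −0.27 in wt for members, and 0.00 and −0.08 for all genes. In Grik1 (0.48 in SCA3 and 0.54 in wt) and Gabra2 (0.22 and 0.06) the dimmest showed the higher difference. Whether members differ from all genes in this was not tested. Without wt CCI-779 replicate 1 the dimmest was below the brightest in 11 of the 16 members in wt. The share over all genes without that array was not computed. That array had the lowest reading of its group on the dim probe sets of Gabrb2 (4.09), Gabra3 (4.45), Gria4 (3.22), Grik2 (2.75) and Grin2b (3.51). Its part through RNA quality was not tested, and where on each transcript a probe set lies was not analysed here.

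**Figure D3:**
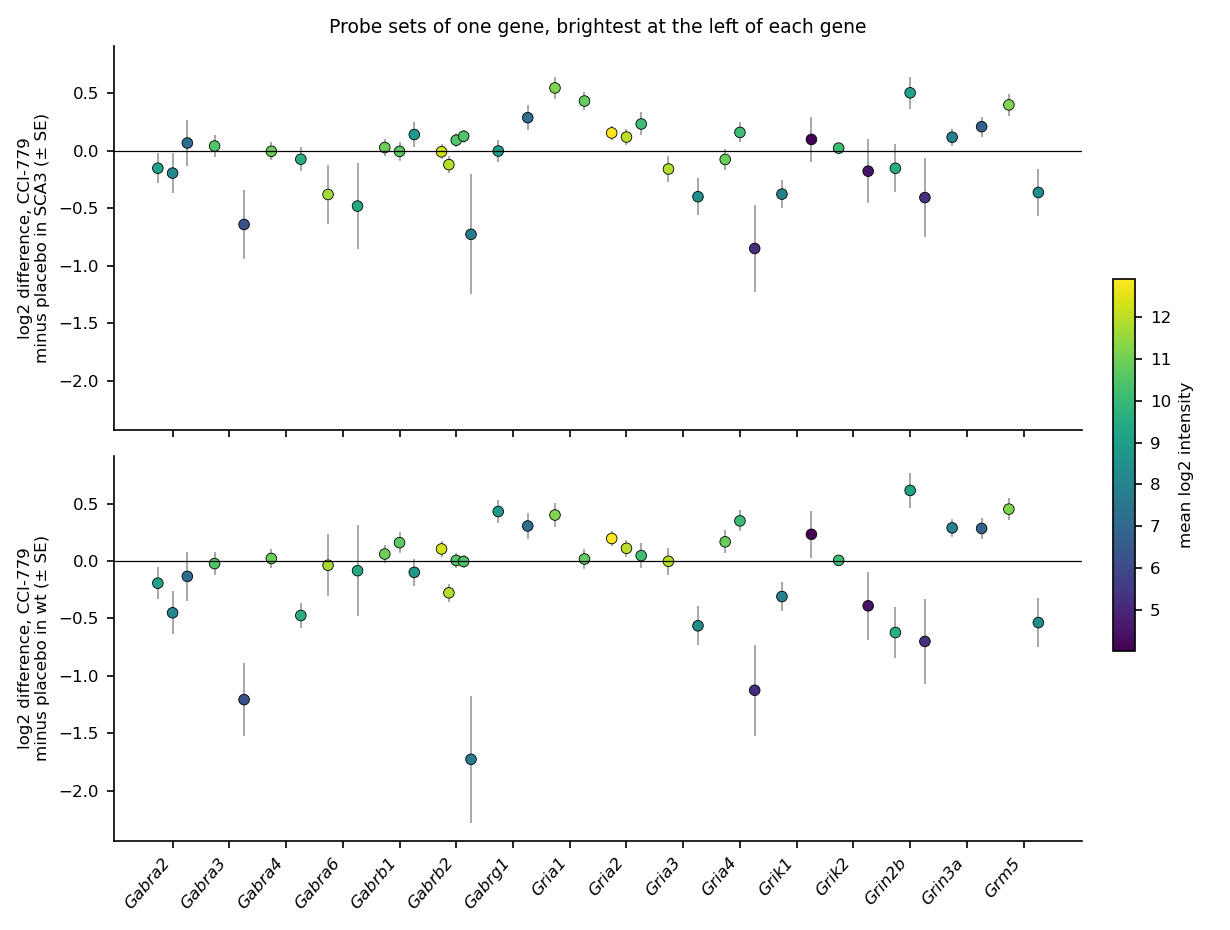
Log2 difference between CCI-779 and placebo (± SE of the limma fit) in SCA3 (top) and in wt (bottom) for every tested probe set of the 16 member genes with more than 1, brightest at the left of each gene and coloured by mean log2 intensity. The dimmest probe sets of Gabra3, Gabrb2, Gria4 and Grm5 lie below the brightest in both genotypes, and those of Gabra2 and Grik1 lie above it in both.

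Gabra6, the alpha subunit of cerebellar granule cells, did not pass in either genotype, and it varied widely between wt arrays. It read 11.22, 11.79, 11.50, 11.78 and 11.60 on SCA3 CCI-779 arrays, against 11.63, 12.04, 12.09, 12.11 and 11.92 on SCA3 placebo arrays, and 11.53, 10.82, 11.89, 11.97 and 11.93 on wt CCI-779 arrays, against 12.28, 11.66, 10.67 and 12.04 on wt placebo arrays. The drug differences were −0.38 in SCA3 (SE 0.26, adjusted p = 0.337) and −0.04 in wt (adjusted p = 0.944). The lowest readings were on wt CCI-779 replicate 2 and wt placebo replicate 3, where the mean of 4 granule cell markers was 9.27 and 9.39 and that of 5 Purkinje cell markers 10.62 and 10.14. Granule cell markers averaged 10.06 to 10.78 on the other 17 arrays. Without these 2 arrays Gabra6 showed −0.38 in SCA3 with an SE of 0.14 (adjusted p = 0.0782) and −0.16 in wt (adjusted p = 0.566).

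**Figure D4:**
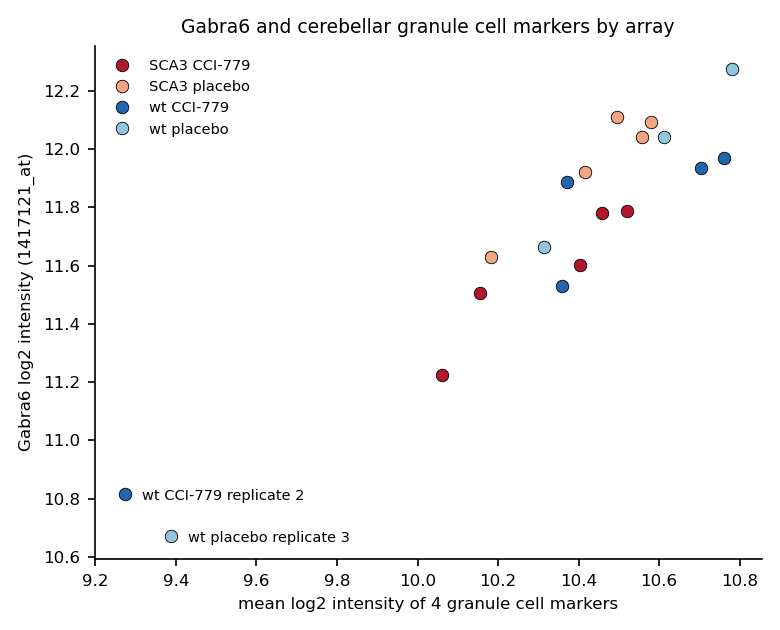
Log2 intensity of Gabra6 against the mean log2 intensity of 4 granule cell markers on each of the 19 arrays, coloured by group. The 2 labelled arrays, wt CCI-779 replicate 2 and wt placebo replicate 3, are lowest on both axes.

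The wt counts were lower without those same 2 arrays, as they were without some other wt arrays. Without them 4 member probe sets rose and 3 fell in wt, against 8 and 6 with them, and 1001 and 166 of all tested probe sets did so, against 2002 and 433. In SCA3 8 rose and 0 fell. The wt effects of Gria1 (0.40, adjusted p = 0.0638), Grin2c (0.87, adjusted p = 0.0638), Grin3a (0.28, adjusted p = 0.0832), Gria4 (0.34, adjusted p = 0.0732), Gabra3 (−1.22, adjusted p = 0.0562), Gabrb2 (−0.26, adjusted p = 0.0835) and Grm3 (−0.48, adjusted p = 0.0509) did not pass in this smaller fit. Leaving out wt placebo replicate 3 alone gave 1110 higher and 233 lower over all tested probe sets in wt. The counts were 1145 and 204 without wt placebo replicate 2, and 1157 and 198 without wt placebo replicate 4. They were 2285 and 432 without wt placebo replicate 1, and 1919 and 384 without wt CCI-779 replicate 2.

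The genotypes did not differ in any receptor subunit by the threshold used. With SCA3 against wt, 0 of 55 member probe sets passed under placebo and 0 under CCI-779, where 0.00977% of all tested probe sets passed in each comparison, and 0 passed for the interaction, where 0% did. At an unadjusted p under 0.05 these counts were 10, 6 and 8 of 55 (18.2%, 10.9% and 14.5%), where 5.75%, 15.4% and 7.68% of all tested probe sets were. Under placebo the smallest p belonged to Gabrg3, with 5.76, 5.71, 5.57, 5.67 and 5.49 on SCA3 arrays against 6.35, 6.02, 6.17 and 5.86 on wt arrays (−0.46, 95% confidence interval −0.63 to −0.29, adjusted p = 0.172). Next in order came dimmer probe sets of Gabra4 (−0.34, adjusted p = 0.641), Gria1 (−0.27, adjusted p = 0.654), Gabrb2 (−0.22, adjusted p = 0.709), Gria2 (−0.29, adjusted p = 0.72) and Grin3a (0.25, adjusted p = 0.73). The comparison shares the wt placebo arrays with that of the drug in wt, where Gabrg3 and Gabra4 were also lower than these arrays.

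Under CCI-779 the first in order were Grin2d, higher in SCA3 by 0.88 (SE 0.25, adjusted p = 0.162), Gabra5 (−0.24, adjusted p = 0.181), Grm2 (0.45, adjusted p = 0.181), Gria3 (−0.33, adjusted p = 0.197), a dimmer probe set of Gabrb2 (0.16, adjusted p = 0.205) and Grm7 (−0.21, adjusted p = 0.318). For Grm2 the SCA3 CCI-779 arrays, at 8.15 to 8.82, did not overlap the wt CCI-779 arrays, at 7.81 to 8.08. For the interaction the first were Gabrg3 (0.43, adjusted p = 0.518), Gria1 on 1448972_at (0.42, adjusted p = 0.518), Gabrg1 (−0.43, adjusted p = 0.554), Gabra5 (−0.29, adjusted p = 0.593), Gabra4 on 1429330_at (0.40, adjusted p = 0.593) and Grin2d (0.95, adjusted p = 0.599). A drug effect that passed in one genotype and not in the other is thus not shown to differ between them.

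Proteins that hold these receptors at synapses were counted from lists of their genes, by the brightest probe set of each. Of 26 tested auxiliary and scaffold proteins of glutamate receptors, 6 rose (23.1%) and 1 fell in SCA3 and 4 rose (15.4%) and 0 fell in wt. Over all genes 11% rose and 6.09% fell in SCA3, and 11.5% rose and 1.64% fell in wt. Dlg2 (PSD-93) rose by 0.87 (SE 0.12, adjusted p = 0.000346) and 0.71 (SE 0.12, adjusted p = 0.00269), Shank3 by 0.57 (adjusted p = 0.00215) and 0.43 (adjusted p = 0.0204), and Dlg3 (SAP102) by 0.52 (adjusted p = 0.00388) and 0.35 (adjusted p = 0.0492), in SCA3 and wt. Cacng4, an AMPA receptor auxiliary subunit, rose in SCA3 (0.50, adjusted p = 0.0062), and Neto2, a kainate receptor auxiliary subunit, rose in wt (0.20, adjusted p = 0.0484). Homer1, which ties group I metabotropic receptors to scaffolds, fell in SCA3 (−0.30, adjusted p = 0.0412).

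Of 15 tested proteins that cluster or carry GABA-A and glycine receptors, 5 rose (33.3%) and 0 fell in SCA3 and 2 rose (13.3%) and 0 fell in wt, beside 11% and 11.5% of all genes that rose. Nlgn2, the neuroligin of inhibitory synapses, rose by 1.16 (SE 0.20, adjusted p = 0.00145) in SCA3 and 1.21 (SE 0.21, adjusted p = 0.00282) in wt, and Trak1, a kinesin adaptor, by 0.33 (adjusted p = 0.0243) and 0.50 (adjusted p = 0.00497). Hap1, which takes part in GABA-A receptor recycling, rose in SCA3 (0.85, adjusted p = 0.00267). Of 5 tested GABA-B and glycine receptor genes, Gabbr1, a subunit of the metabotropic GABA receptor, rose in SCA3 (0.35, adjusted p = 0.00218) and 0 passed in wt.

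Of 15 tested genes of glutamate and GABA synthesis and transport, 6 rose (40%) and 1 fell (6.67%) in each genotype, beside 11% and 6.09% of all genes in SCA3 and 11.5% and 1.64% in wt. Gad1, which makes GABA from glutamate, rose in SCA3 by 0.27 (adjusted p = 0.0103) and in wt by 0.26 (adjusted p = 0.0223), and the glutamate transporters Slc1a1 and Slc1a2 rose in both (0.52 and 0.28 in SCA3, 0.39 and 0.18 in wt). Slc32a1, the vesicular GABA transporter, rose in wt (0.51, adjusted p = 0.00147), and Gad2 in SCA3 (0.40, adjusted p = 0.00196). Abat, which breaks GABA down, fell in SCA3 (−0.31, adjusted p = 0.00792), and Slc1a4, a neutral amino acid transporter, fell in wt (−0.37, adjusted p = 0.0429).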

How the data were processed

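RNA of mouse brain was measured on Affymetrix arrays. The authors deposited 1 table of linear intensities per probe set, which per the submitters' processing notes came from GCRMA (version not given in the sources used here). Values were taken to log2 with no pseudocount. Probe sets averaging 4 or more were fitted with limma 3.58.1 in R 4.3.3, as 4 group means over all 19 arrays with 15 residual degrees of freedom, and p-values are two-sided and Benjamini-Hochberg adjusted over 20473 probe sets for each comparison. The steps were tested on simulated data. The number of arrays limits the precision. One wt CCI-779 array has no number in its label and is called replicate 1. Of the probe sets, 34945 have a single gene symbol, 932 have several and 9160 have none. A gene is represented by its brightest tested probe set, and the text names the AMPA subunits and other main subunits whatever their values, all members past the threshold and the next in order of p up to 6 where fewer passed, and from each list those of smallest p. Other members and list genes named beside these were chosen after their values were seen. The members and lists were chosen with earlier results of these data known. Replicate numbers were not used in the fit. In a later check the deviations of same-numbered arrays had a median correlation of 0.03, which cannot show what the numbers stand for. Promoters come from RefSeq (GRCm38.p6). Alternatives changed the filter, scaling, variance model, weights, arrays, block and gene summary. Some receptor subunit genes are not reported here.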

Additional observations from a re-analysis of the deposited data

Results flagged for a closer look

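Among 100 groups tested (25 named probe sets in 4 groups), 8 held an array far from the others, where chance gives about 1 in 20. SCA3 CCI-779 replicate 4 was low for Gria3 on 1420563_at (7.85, others 8.11 to 8.17) and for Grin2b on 1442370_at (8.77, others 9.62 to 9.95). SCA3 placebo replicate 1 was high for Gria1 on 1448972_at (10.64, others 10.46 to 10.51) and for Grm5 on 1455272_at (11.33, others 10.86 to 10.96). For Grin3a on 1438866_at, wt CCI-779 replicate 1 was high (8.24, others 7.85 to 7.91), as was wt placebo replicate 4 (7.83, others 7.59 to 7.62). Gabrg3 was high on wt CCI-779 replicate 2 (5.90, others 5.67 to 5.71). Grin2d was low on wt placebo replicate 1 (4.23, others 4.50 to 4.52).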

How the results depend on the processing

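Counts of member probe sets under CCI-779 were 8 higher and 1 lower in SCA3 and 8 and 6 in wt, and counts of genes 6 and 1, and 6 and 2. In SCA3 the lower probe sets became 2 with array weights, 3 in a fit of the compared groups only, and 0 with no filter, and the lower genes became 0 in the last 2 of these and with 1 value per gene. Over all tested probe sets 1179 were lower in SCA3 with array weights and 926 with the compared groups only, against 1013 in the main fit. With no filter 694 of 45037 were lower, and with 1 value per gene 458 of 10454 genes. Without SCA3 CCI-779 replicates 2 and 5, 4 probe sets and 3 genes were higher. Without wt CCI-779 replicate 1 as well, 5 probe sets were higher, 5 lower and 2 genes lower. Over all tested probe sets 914 rose and 289 fell in SCA3 without replicates 2 and 5. Without all 3 arrays 1510 rose and 825 fell. In wt, centring gave 4 probe sets and 3 genes higher, and the compared groups alone 3 and 3 higher with 1 and 0 lower. Over all tested probe sets centring gave 959 higher and 1163 lower in wt, and the compared groups alone 1170 and 194. The main fit gave 2002 and 433. No filter gave 3 probe sets and 1 gene lower in wt, a mean of at least 6 gave 1 gene lower, and 1 value per gene 4. Over everything tested in these settings, 273 of 45037 probe sets, 421 of 16365 probe sets and 137 of 10454 genes were lower. Without wt CCI-779 replicate 2 and wt placebo replicate 3, an alternative chosen after seeing the data, 0 probe sets and 0 genes were lower in SCA3, and 4 probe sets and 3 genes higher and 3 and 1 lower in wt. Leaving out 1 array at a time gave 6 to 8 probe sets and 5 to 6 genes higher and 0 to 3 and 0 to 1 lower in SCA3, and 5 to 10 and 4 to 7 higher and 3 to 9 and 1 to 3 lower in wt. The 5 was without wt placebo replicate 3, the 3 lower without wt placebo replicate 2, 3 or 4, and the 3 lower in SCA3 without wt CCI-779 replicate 1. Over all tested probe sets, leaving out 1 array gave 1421 to 2520 higher and 535 to 1528 lower in SCA3. In wt it gave 1110 to 2285 higher and 198 to 500 lower. The genotype and interaction counts of member probe sets stayed at 0 in each of these settings. With 1 value per gene the sign turned for Grin2b in SCA3 (−0.018) and, in wt, for Gabrb2 (−0.38), Gria4 (−0.20), Grin2b (−0.24) and Grm5 (−0.042); this average lets dim probe sets weigh as much as bright ones. The cause of the other shifts was not tested. With the replicate number as a block, 7 probe sets were higher and 1 lower in SCA3 and 7 and 4 in wt; Grin2c in both genotypes and Gabrb2, Gria3 and Gria4 in wt lost the call. Deviations of 27 same-numbered pairs had a median correlation of 0.03 (−0.31 to 0.29), and those of 108 other pairs −0.01 (−0.37 to 0.34). Above 0.1 lay 10 of the 27 and 32 of the 108. These correlations cannot show what the numbers stand for. Signal near the filter limits Grin2d and the dim probe sets.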
